A study of Caenorhabditis elegans with 5 samples.

Results

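The regions described here are the stretches of chromosome arm on chromosomes II, III and IV that carried called peaks of histone H3 trimethylated at lysine 36 (H3K36me3) in unfed L1 larvae (the first larval stage) of the nematode Caenorhabditis elegans. The broad peaks of 4 deposited lists were merged wherever they shared at least 1 bp. A merged region was a member when its midpoint fell outside the recombination-poor centre of its chromosome, set at 4.879 to 12.02 Mb on II, 3.722 to 10.34 Mb on III and 3.896 to 12.97 Mb on IV. This gave 2118 arm regions out of 7653 merged regions on all 6 chromosomes, and 1864 regions in the 3 centres served for comparison. Chromatin from pools of 600 whole larvae was immunoprecipitated with an H3K36me3 antibody. Wild type was the strain N2 (2 libraries), and the mutant carried spr-5 allele by101 (on I) together with met-2 allele n4256 (on III) (2 libraries). All larvae hatched overnight in M9 buffer without food, and the labels name no treatment. Because whole larvae were pooled, a wider mark in each cell and a mark carried by more cells cannot be told apart. Nothing in the labels says whether the replicates came from separate cultures, so p-values measure only the spread between these samples.

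H3K36me3 lies over the bodies of transcribed genes. In the worm it is laid down during transcription by MET-1, and MES-4 maintains it on genes that were active in the parental germline, including in embryos where those genes are silent. SPR-5 removes methyl groups from H3K4, a mark of active promoters, and MET-2 adds methyl groups to H3K9, a mark of silent chromatin. The chromosome arms recombine often, are rich in repeats and in H3K9 methylation, and lie near the nuclear periphery, whereas the centres hold more of the highly expressed and essential genes. Arm coverage was therefore compared with centre coverage in each library, then between the arms, and then between genotypes.

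The 4 lists differed in length by replicate number. On all chromosomes the replicate 1 lists held 5507 (wild type) and 5886 (mutant) peaks and the replicate 2 lists 3878 and 1938. The lists give the position of each peak and no count, height or score, so read depth is unknown. Where a list lacks a region, no peak was listed there, which does not show that signal was absent. Coverage and peak counts on the arms were higher in the longer lists, and the part of list length in the results was not tested. Positions are those of the genome build ce10, and no gene was assigned to a region because no gene positions of that build were used. For the same reason the larval tissue was not checked against marker genes.

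The arms carried less called H3K36me3 than the centres in every library, and their peaks were narrower. Peaks covered 8.99% of the 23.7 Mb of arm in wild-type replicate 1 and 13.3% of the 22.8 Mb of centre. In wild-type replicate 2 the values were 1.82% of the arms and 2.83% of the centres. Mutant replicate 1 had 10.7% and 13.0%, and mutant replicate 2 had 0.676% and 1.30%. The arms thus stood lower in 4 of 4 libraries, by 2.05 ± 1.65 percentage points (SD, n = 4; two-sided exact sign-flip permutation, p = 0.125, the lowest that 4 libraries allow). As a ratio, arm coverage was 0.678 and 0.644 times centre coverage in wild-type replicates 1 and 2, and 0.823 and 0.521 times in mutant replicates 1 and 2. The mutant values lay on either side of both wild-type values.

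The number of peaks per Mb differed less between arms and centres than the length they covered. In the replicate 1 lists the arms had 61.5 (wild type) and 69.8 (mutant) peaks per Mb, against 64.6 and 67.5 in the centres. In the replicate 2 lists they had 40.5 and 18.1, against 49.7 and 30.9. In the replicate 1 lists the median arm peak was 610.0 bp wide (wild type) and 678.5 bp wide (mutant), where the median centre peak had 1319.5 and 1211 bp. In the replicate 2 lists the arm medians were 174 bp and 149 bp, and the centre medians 211 bp and 180.0 bp. Arm peaks were narrower in 4 of 4 libraries (mean difference -327.5 bp; exact sign-flip permutation p = 0.125, again the smallest possible). In replicate 1 the lower coverage of the arms therefore went with narrower peaks at a similar spacing.

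**Figure D1:**
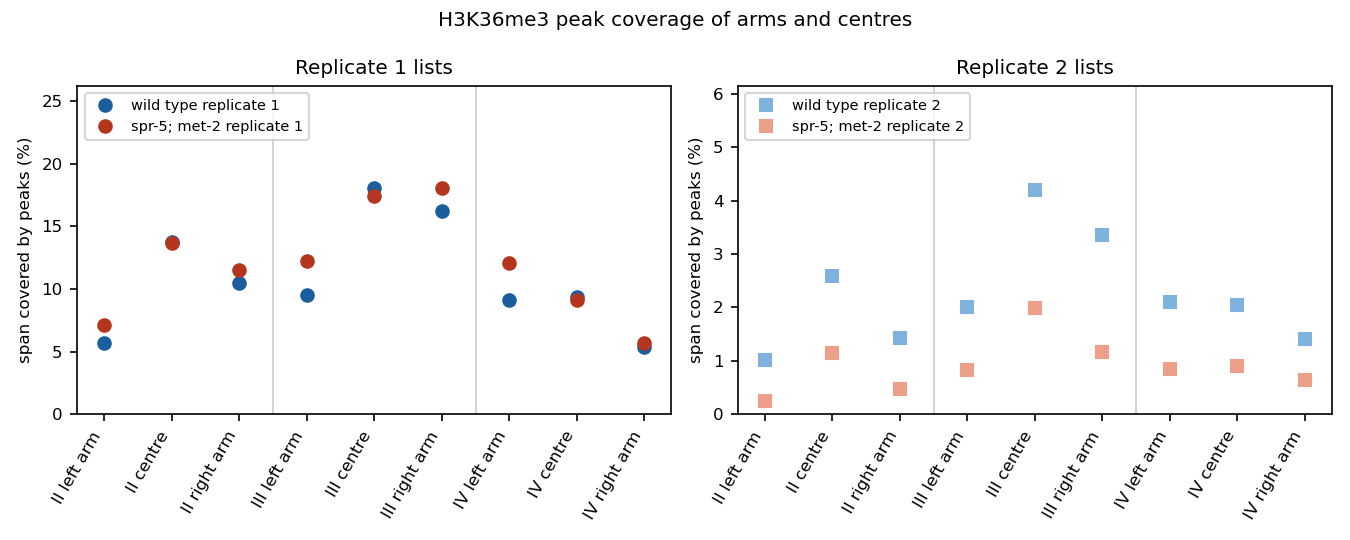
Percentage of each arm and centre of II, III and IV covered by H3K36me3 peaks, with 1 point per library; the replicate 1 lists are on the left and the replicate 2 lists on the right, on separate vertical scales starting at 0. The left arm of II and the right arm of IV are the lowest points in every library but mutant replicate 2, where the right arm of II (0.467%) lies below that of IV (0.644%), and the arms of IV are ordered the other way round from those of II and III.

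The 6 arms were far from alike, and their asymmetry had the same direction in all 4 libraries. On II the left arm was sparse, with 5.70% covered in wild-type replicate 1, 1.01% in wild-type replicate 2, 7.15% in mutant replicate 1 and 0.243% in mutant replicate 2. The right arm of II had 10.5%, 1.42%, 11.5% and 0.467% in the same order. Right-arm coverage on II was thus 1.41 to 1.93 times left-arm coverage in the 4 libraries.

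On III the right arm also led. Its coverage was 16.3% in wild-type replicate 1, 3.37% in wild-type replicate 2, 18.1% in mutant replicate 1 and 1.16% in mutant replicate 2. The left arm of III had 9.51%, 2.02%, 12.2% and 0.836%, so the right arm was 1.39 to 1.71 times as covered. With 128 merged regions per Mb, the right arm of III was the most densely marked of the 6 arms. In mutant replicate 1 it reached 1.04 times the coverage of the III centre, and 0.583 to 0.902 times in the other 3 libraries.

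On IV the order was the opposite. The left arm had 9.10% covered in wild-type replicate 1, 2.11% in wild-type replicate 2, 12.0% in mutant replicate 1 and 0.847% in mutant replicate 2, and the right arm had 5.39%, 1.41%, 5.72% and 0.644%. Left-arm coverage was 1.31 to 2.11 times right-arm coverage. The left arm of IV had 0.969, 1.04, 1.32 and 0.937 times the coverage of the IV centre in the 4 libraries, a higher ratio than any other arm in each of them. The right arm of IV, which houses a large cluster of genes for 21U-RNAs (the piRNAs of the worm), held 46.6 regions per Mb, fewer than any other arm. Summed over the 3 chromosomes these opposite asymmetries nearly cancelled. The right arms held 53.0 ± 1.05% of arm coverage in wild type, compared with 51.2 ± 2.08% for the mutant (SD, n = 2 each). That difference of -1.80 percentage points was smaller than the mutant spread (exact two-sided permutation p = 0.667, where 2 libraries against 2 cannot go below 0.333). Within replicate 1 it was -4.01 and within replicate 2 it was 0.41.

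Arm bins well covered in any list tended to be well covered in the others. In bins of 0.5 Mb counted outward from each boundary, the coverage of the 48 arm bins was ranked alike in every pair of lists (Spearman's rho 0.66 to 0.89, a description over bins of the same chromosomes). The highest rho, 0.89, was between the replicate 1 lists of both genotypes, followed by 0.85 between the replicate 2 lists. The bins were pooled over all arms, so differences in level between arms enter these values, and ranks within an arm were not tested. On the left arm of IV the most covered bin began 0.5 Mb out in both wild-type lists. In mutant replicates 1 and 2 it began 2.5 and 3.5 Mb out. On the left arm of II the bin at the chromosome tip, 4.5 to 4.879 Mb from the boundary, was the most covered of its 10 bins in all 4 lists. It had 13.6% and 2.58% in wild-type replicates 1 and 2, and 11.8% and 0.835% in mutant replicates 1 and 2. On the left arm of III the bin next to the centre was the most covered of 7 in all 4 lists, from 16.1% in mutant replicate 1 to 1.79% in mutant replicate 2. These 7 bins end 3.5 Mb out, so the tip of that 3.722 Mb arm was not binned. The arms therefore did not share a gradient: coverage fell away from the centre on some and rose toward the tip on others. When each arm was divided at its middle, the outer part was more covered than the inner part in all 4 libraries on both arms of II. The inner part was more covered in all 4 on the left arm of III and on the right arm of IV.

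The right arm of IV held the barest stretch. The bin 3.0 to 3.5 Mb outward from its boundary was the lowest of that arm's 9 bins in all 4 lists. Its coverage was 0.136% in wild-type replicate 1, 0.0462% in wild-type replicate 2, 0.422% in mutant replicate 1 and 0.0094% in mutant replicate 2, with 13 merged regions. The bin just beyond it returned to 6.28%, 1.65%, 6.31% and 0.760%. The longest arm interval without a peak in any list was next to this bin and reached into it, at chrIV:15718490-16000257 (281768 bp). This arm had 9 region-free intervals longer than 100 kb, the left arm of II had 7, the right arm of II and the left arm of IV had 2 each, and the arms of III had 0. The longest region-free intervals of the other arms ran from 81635 bp on the right arm of III to 172265 bp on the left arm of II (chrII:950329-1122593).

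**Figure D2:**
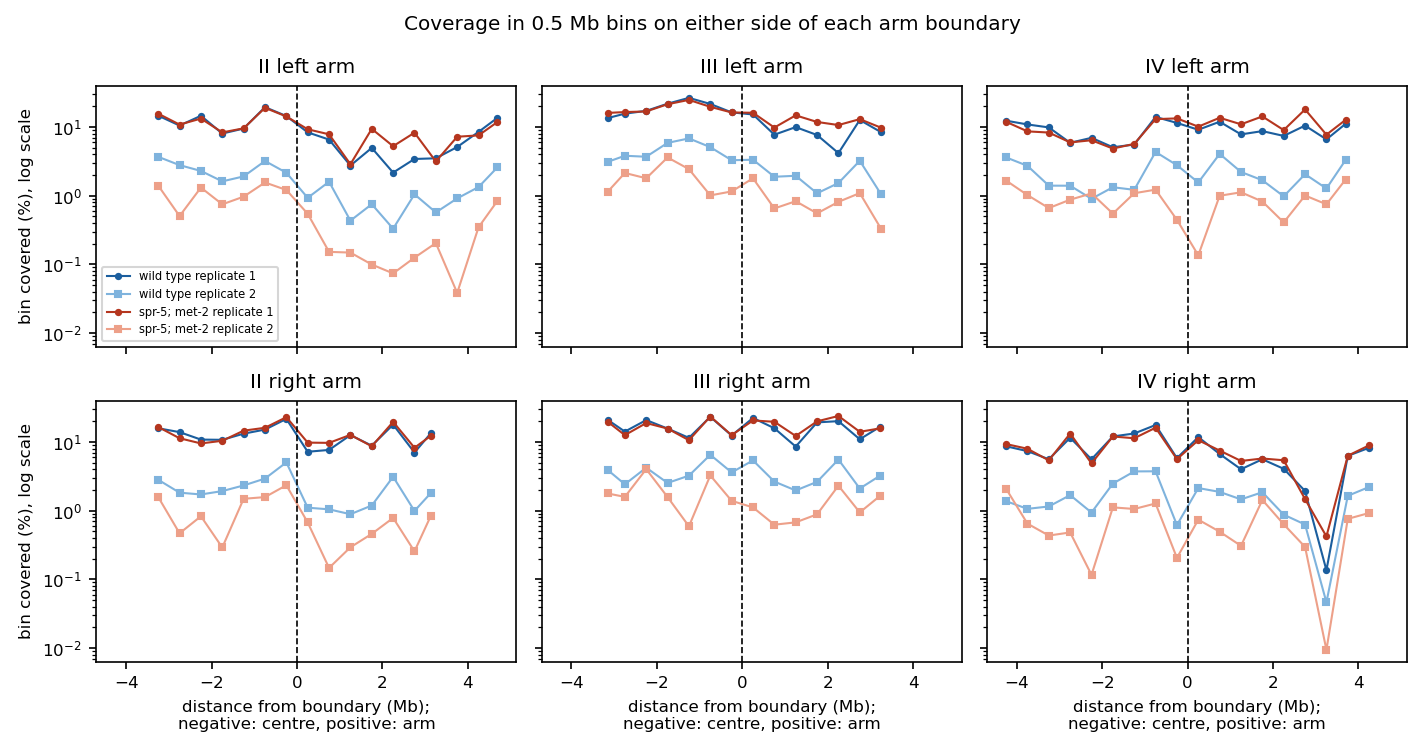
Percentage of each 0.5 Mb bin covered by peaks (log scale) against distance from the arm boundary in Mb, with the centre at negative and the arm at positive distances; 1 line per library and 1 panel per arm. All 4 lines drop together 3.0 to 3.5 Mb out on the right arm of IV, to between 0.0094% and 0.422%, and rise toward the tip of the left arm of II.

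Arm regions were found in fewer lists than central ones. Of the 2118 arm regions, 291 (13.7%, Wilson 95% interval 12.3 to 15.3%) had a peak in all 4 lists, where the share over all merged regions was 16.9%. In the centres the count was 447 of 1864 (24.0%, interval 22.1 to 26.0%). A further 294 arm regions were in 3 lists and 504 in 2. In a single list stood 1029 arm regions (48.6%), against 45.6% over all merged regions and 699 (37.5%) in the centres. These intervals cover counting error only, and regions of the same libraries are not replicates. The share in all 4 lists ran from 10.2% on the right arm of II to 16.6% on the right arm of IV. All 6 arms lay below the 3 centres, which ranged from 20.7% to 26.7%.

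Among regions in a single list, mutant replicate 1 supplied 506 with a median width of 227 bp and wild-type replicate 1 supplied 308 (200.5 bp). Wild-type replicate 2 supplied 180 (66 bp) and mutant replicate 2 supplied 35 (128 bp). In the order named, these were 23.9%, 14.5%, 8.50% and 1.65% of arm regions, against 14.4%, 12.8%, 7.83% and 2.41% of central regions. The largest class shared between lists was the 428 arm regions in both replicate 1 lists and neither replicate 2 list (20.2%, against 18.2% over all merged regions). A further 259 regions (12.2%, against 13.8% of central regions) were in every list but mutant replicate 2, the shortest list. Of the 373 arm regions called in mutant replicate 2, 330 (88.5%) were also in mutant replicate 1 and 328 (87.9%) in wild-type replicate 1. Of the 800 in wild-type replicate 2, 575 (71.9%) were also in wild-type replicate 1 and 594 (74.25%) in mutant replicate 1. The arm regions of each replicate 2 list were thus found in the replicate 1 lists of both genotypes at nearly the same rate. The same held in the centres. There, 90.3% of the mutant replicate 2 regions were in mutant replicate 1 and 89.5% in wild-type replicate 1. For wild-type replicate 2 the central shares were 80.4% in mutant replicate 1 and 80.7% in wild-type replicate 1.

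**Figure D3:**
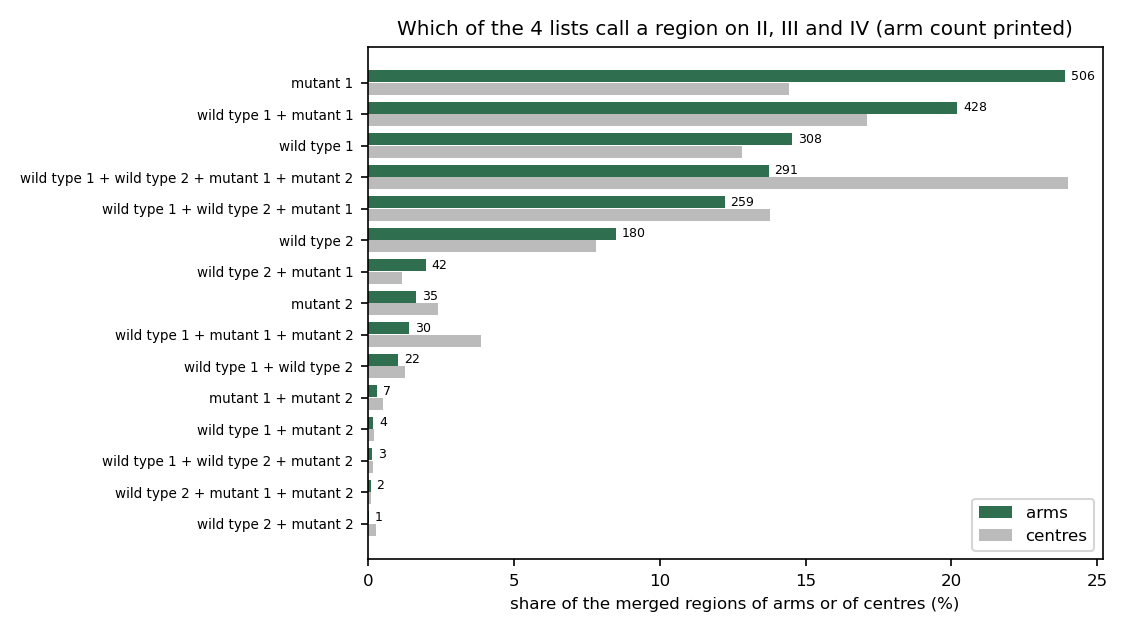
Share of arm regions (dark bars) and of central regions (light bars) on II, III and IV with each combination of the 4 lists, in percent of the regions of that zone; the printed number is the count of arm regions. Regions in mutant replicate 1 alone form the largest arm class (506), whereas regions in all 4 lists form the largest central class (447).

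Width rose with the number of lists. Merging favours such a rise, because each overlapping peak can only widen a region and a wider region meets more peaks. How much of the rise came from merging was not tested. The median arm region was 186 bp wide in 1 list, 1094 bp in 2, 2116 bp in 3 and 3722 bp in all 4. In the centres these medians were 180.0, 1217.5, 2561 and 3956 bp. The 291 arm regions in all 4 lists made up 39.6% of the 3.13 Mb of merged arm length, and the 1029 single-list regions 11.6%. Of the 149 arm regions at least 5000 bp wide, 91 were in all 4 lists and 148 were in both replicate 1 lists. Of the 235 central regions of that width, 176 were in all 4 lists and 234 in both replicate 1 lists. Such broad regions made up 7.03% of arm regions and 12.6% of central regions. Regions in all 4 lists were nevertheless covered very unequally. The median covered length in an arm region of this class was 2656 bp (wild type) and 3222 bp (mutant) in the replicate 1 lists, and 540.0 bp (wild type) and 197 bp (mutant) in the replicate 2 lists. The replicate 1 lists thus filled most of such a region (median 91.2% and 93.2%), and the replicate 2 lists marked short pieces of it (27.4% and 12.0%).

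**Figure D4:**
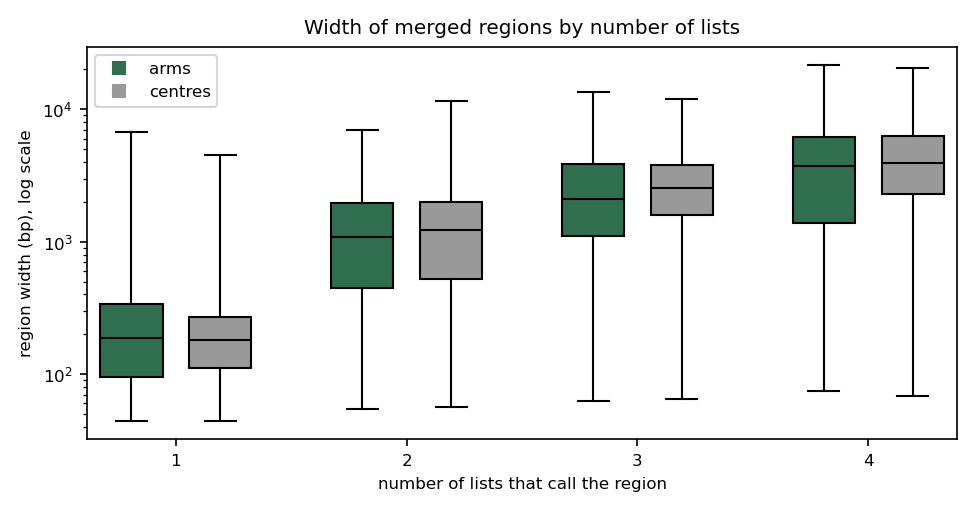
Width of merged regions in bp (log scale) against the number of lists that call them, for arms (dark boxes) and centres (light boxes); boxes span the quartiles, the line is the median and whiskers reach the lowest and highest value. Median arm width climbs from 186 bp in 1 list to 3722 bp in all 4, a rise that merging itself favours.

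On each arm, the region in all 4 lists with the largest covered length averaged over the lists shows this pattern. On the left arm of II it was chrII:4695045-4714308, a 19264 bp stretch 174 kb outside the centre. Wild-type replicates 1 and 2 covered 17138 and 2723 bp of it, and mutant replicates 1 and 2 covered 16800.0 and 1546 bp. The replicate 1 libraries of both genotypes covered nearly all of it. The widest arm region, chrII:14346961-14368638 on the right arm of II (21678 bp), was covered over 20339, 4712, 19503 and 1766 bp in wild-type replicates 1 and 2 and mutant replicates 1 and 2. On III, in that order, these were chrIII:78497-88399 on the left arm (9671, 2600.0, 9688 and 680.0 bp) and chrIII:13640739-13655317 on the right arm (14125, 3925, 14579 and 1209 bp). Both lay close to a chromosome end, 78.5 kb and 128 kb away. On the left arm of IV chrIV:3032877-3050425 was covered over 16511, 5772, 17344 and 1816 bp. On the right arm of IV chrIV:13776822-13791134 was covered over 11835, 5525, 13883 and 2181 bp. In these 6 regions the replicate 1 lists of the genotypes differed by a factor below that between replicates of a genotype, and the wild-type replicate 2 list always covered more than the mutant one.

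The genotype comparison asked whether loss of SPR-5 and MET-2 altered how much of the arms was called. Arm peaks numbered 1459 and 960 in wild-type replicates 1 and 2, and 1656 and 429 in mutant replicates 1 and 2. The means, 1209.5 ± 353 and 1042.5 ± 868 (SD, n = 2 each), differed by less than either SD (exact permutation test, two-sided, p = 1). Arm covered length was 2.13 and 0.433 Mb in wild type and 2.53 and 0.160 Mb in the mutant, a difference in means of 0.063 Mb (exact permutation p = 1). The arm share of the covered length on II to IV was 41.3% and 40.1% in wild type and 46.1% and 35.1% in the mutant. Its means, 40.7 ± 0.882% and 40.6 ± 7.76% (SD, n = 2 each), differed by -0.098 percentage points (exact permutation p = 1). The mutant libraries thus lay above and below both wild-type libraries, and the direction followed the replicate number.

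Within replicate 1 the mutant list covered more of all 6 arms and slightly less of all 3 centres. Its covered length was 1.25 times that of wild type on the left arm of II, 1.28 times on the left arm of III and 1.32 times on the left arm of IV. On the right arms of II, III and IV the ratio was 1.10, 1.11 and 1.06, and in the centres it was 0.997, 0.969 and 0.969. Within replicate 2 the ratio was below 1 everywhere, from 0.240 on the left arm of II to 0.458 on the right arm of IV, with 0.444 to 0.476 in the centres. Over all arms the ratio was 1.19 in replicate 1 and 0.371 in replicate 2, against 0.978 and 0.458 in the centres. Relative to the centres the summed arms were therefore higher in the mutant in replicate 1 and lower in replicate 2. Against its own centre, the right arm of IV was an exception in replicate 2, with 0.458 against 0.444. The longer list held the larger arm share in both pairs.

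**Figure D5:**
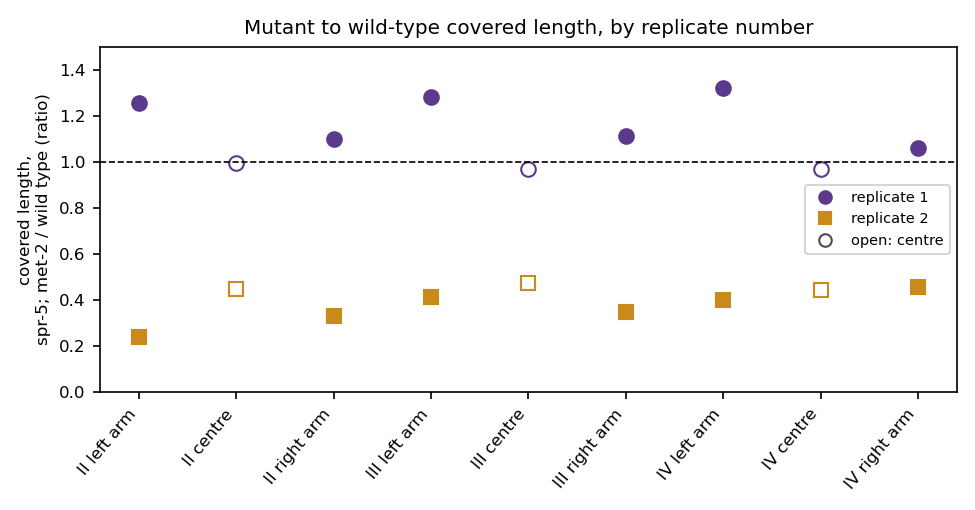
Covered length in the mutant divided by that in wild type for each arm (filled) and centre (open), within replicate 1 (circles) and within replicate 2 (squares); the dashed line marks a ratio of 1. In replicate 1 all arms lie above 1, left arms more than right arms, and the centres lie at or just below 1; in replicate 2 every value is below 0.5.

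The replicate 1 difference lay both in shared and in singly called regions. Assigning peaks to their merged region, the mutant list had 397 kb more on the arms. The 1008 arm regions called in both replicate 1 lists (47.6%, against 50.3% of all merged regions) contributed a net 247 kb. In them the mutant peaks were longer in 542 regions and the wild-type peaks in 463, with a median log2 ratio of 0.05. The 557 arm regions called in the mutant list alone of this pair (26.3%, against 21.6% of all merged regions) held 259.9 kb, and the 337 called in wild type alone (15.9%, against 16.9%) held 110.3 kb. In the centres the corresponding counts were 303 and 270. In replicate 2, by contrast, 76 arm regions were called in the mutant alone (3.59%, against 5.04% of all merged regions) and 503 in wild type alone (23.7%, against 25%). Both replicate 2 lists called 297 (14.0%, against 17.2%).

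Bin by bin, the mutant list covered more in 39 of the 48 arm bins in replicate 1 and in 0 of 48 in replicate 2. In the centres the mutant was higher in 19 of 46 bins in replicate 1 and in 2 of 46 in replicate 2. The bins named here have the largest difference in percentage points on each left arm in replicate 1, and were picked after their values were seen. For IV left, 2.5 to 3.0 Mb out, coverage was 10.5% in wild type and 18.0% in the mutant in replicate 1, and 2.06% and 1.01% in replicate 2. For III left, 2.0 to 2.5 Mb out, it was 4.17% and 10.7% in replicate 1, and 1.53% and 0.813% in replicate 2. For II left, 2.5 to 3.0 Mb out, it was 3.43% and 8.27% in replicate 1, and 1.05% and 0.125% in replicate 2. The bins with the larger mutant excess in replicate 1 were not those with the larger mutant share in replicate 2: the ratios of the 2 pairs had a Spearman's rho of -0.09 over the 48 bins.

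Few arm regions followed genotype in both replicates. A peak in both wild-type lists and neither mutant list was found in 22 arm regions (1.04%, Wilson 95% interval 0.687 to 1.57%), where the share over all merged regions was 1.28%. The reverse was found in 7 (0.331%, interval 0.160 to 0.681%), where the share over all merged regions was 0.405%. Both shares were near that background. The order of these counts depended on which peaks were kept: with the 1938 widest peaks of each list, 11 arm regions were wild-type-only and 16 mutant-only, and with peaks of at least 500 bp there was 1 of each. As a fraction of the arm regions called in both lists of the genotype, they were 3.83% of 575 in wild type and 2.12% of 330 in the mutant, against 3.28% and 1.88% in the centres. By arm, the 22 comprised 5 on II left, 2 on II right, 7 on III left, 4 on III right, 3 on IV left and 1 on IV right. Of the 7 mutant ones, 3 lay on the left arm of II, 0 on the right arm of II and 1 on each of the other 4 arms.

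The mutant-only arm regions were short pieces, or long in a single replicate. The longest, chrII:1916341-1918726, had 2386 and 147 covered bp in mutant replicates 1 and 2, with 0 bp in both wild-type lists. Also on the left arm of II, chrII:592085-593259 was covered over 1175 and 130.0 bp. On the right arm of IV, chrIV:17283908-17284873 had 962 and 336 bp, the highest replicate 2 value among these. The region chrIII:13144473-13145347 had 875 and 57 bp, and chrIV:841822-842071 had 250.0 and 113 bp. The wild-type-only regions had the same form. The first, chrII:14225956-14228591, had 2636 and 93 covered bp in wild-type replicates 1 and 2, followed by chrIII:341246-343540 with 2295 and 289 bp. Next were chrIV:1300661-1303034 (2243 and 145 bp), chrIII:3614083-3615703 (1621 and 120.0 bp) and chrIII:12574532-12575136 (605 and 126 bp).

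Regions in all 4 lists were split by replicate number as well. Of the 291 such arm regions, mutant peaks covered more in 153 and wild-type peaks in 136 in replicate 1. In replicate 2 the mutant covered more in 47 and wild type in 243. Of the 447 such central regions, the mutant covered more in 212 and wild type in 232 in replicate 1. In replicate 2 these central counts were 104 and 341. In 31 arm regions the mutant covered more in both replicates, and in 120 wild type did. In the centres the counts for both replicates were 55 and 182 of 447.

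The tips of the arms were marked in a single library. In mutant replicate 2 a peak began 25 to 27 bp from the left end of II, III and IV, and its peaks at the right ends of these chromosomes reached the last base covered by any list, from which right-end distances are counted. These 6 terminal peaks were 77 to 1156 bp wide, and each was a merged region of its own that no other list called. In the other 3 lists the peak nearest to an arm's end lay between 4.07 and 112 kb away, and within 5 kb of an end these lists held a peak in 1 arm (wild-type replicate 1, right arm of II). This follows 1 library and not the genotype, since mutant replicate 1 had its nearest terminal peak at 6.76 kb.

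At the limits of the arms, the single regions nearest each boundary did not differ in a common direction in width or list number. In the adjoining 0.5 Mb bins, coverage fell from centre to arm in all 4 lists at both boundaries of II. It also fell in all 4 at the left boundary of IV. At the right boundary of IV it rose in all 4 lists, and on III the lists disagreed. Wild-type replicate 1 fell from 21.7% to 7.22% at the right boundary of II and rose from 5.82% to 11.8% at that of IV. The arm region nearest each of the 6 boundaries was 84 to 7095 bp wide and in 1 to 4 lists, and the nearest central region was 78 to 4392 bp wide and also in 1 to 4 lists. A single region spanned a boundary, the one on the left of the III centre, 7095 bp wide and called in all 4 lists, with its midpoint 0.723 kb on the arm side.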

How the data were processed

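The 4 ChIP libraries each have 1 deposited list of broad peaks; the input library was not analysed here. The deposited lists hold 3 columns (chromosome, start, end), so their unit is a position, with no count or score. Per the submitters' processing notes, the tools were FastQC, Bowtie2, deepTools, MACS2 and bedtools on build ce10; their roles, versions, the peak threshold and the control are not given in the sources used here. Per the labels' protocols, reads were 50 bp single-end. Within each list neighbouring peaks lie at least 1201 bp apart, so close peaks were already joined, which widens peaks and lowers their number. The read depth is unknown.

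From the lists, peaks of all libraries were merged with Python 3.11.15 (pandas 2.3.3, numpy 2.4.6) where they shared at least 1 bp; 5 pairs of regions that touch without a shared base were kept apart. Regions and peaks were placed by midpoint. The build of the domain limits is not stated. Right chromosome ends were taken at the last base any list covers. Covered length counts each peak's whole width. Genotypes were compared by exact two-sided permutation over the 6 assignments of 4 libraries, and arms with centres by exact sign flips over 4 libraries; shares of regions have Wilson 95% intervals (scipy 1.17.1). The code was tested on simulated data. Named regions were picked by covered length averaged over lists. They are the highest in all 4 lists per arm and the 5 highest genotype-specific ones per genotype, averaged over that genotype's lists. The region nearest each arm's end and the longest region-free interval per arm are also named. The members, rules and settings were chosen with earlier results of these data known.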

Additional observations from a re-analysis of the deposited data

How the results depend on the processing

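The lower coverage of the arms kept its sign under 7 settings (-2.98 to -1.42 percentage points, exact permutation p = 0.125) and without each library (-2.53 to -1.31). The width difference did too (-380.0 to -109.5 bp, exact permutation p 0.125 to 0.25; -426 to -200.2 bp without each library). The difference in arm share turned from -0.098 percentage points to 0.937 where peaks under 500 bp were left out, 0.205 without 0.5 Mb on either side of each boundary, 0.599 with the 1938 widest peaks of each list, 0.703 without II and 0.168 without III, and ran from -5.58 to 5.39 without each library. The difference in arm peaks turned to 17.5 with the widest peaks and ran from -780.5 to 446.5 without each library; that in covered length ran from -1.12 to 1.25 Mb and that in right-arm share from -3.27 to -0.33. The cause was not tested. Mutant-only arm regions numbered 1 where peaks under 500 bp were left out, 16 with the widest peaks, 4 without II, 3 where 50% of the region had to be covered and 548 where 1 library sufficed; wild-type-only ones numbered 1, 11, 14 and 510 under the same settings other than leaving out II, and 11 without III. Regions in all 4 lists numbered 73 where peaks under 500 bp were left out, 159 with the widest peaks, 161 without III and 49 at 50% covered. Without each library, these counts were 9 to 513, 25 to 331 and 291 to 550; fewer libraries mean fewer conditions. With a replicate block the differences were the same as without it (-167 arm peaks, 0.063 Mb, -0.098 and -1.80 percentage points; exact permutation p = 1 for each), and 2 pairs cannot go below p = 0.5. The replicate 1 minus replicate 2 differences of the genotypes were correlated over arm bins (r = 0.82, 2374 bins). The replicate 1 list covered 4.93 (wild type) and 15.8 (mutant) times the arm length of the replicate 2 list. Both differences therefore mostly follow the replicate 1 lists, and this r cannot show whether same-numbered libraries were paired.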
